A study of Mus musculus with 12 samples.

Results

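Ddit3 encodes CHOP, a transcription factor that cells make when protein synthesis or folding is under stress. In the integrated stress response, kinases phosphorylate the initiation factor eIF2, general translation slows, and the translation of Atf4 increases. ATF4 then drives Ddit3, Asns, Trib3 and other genes of amino acid supply. Leydig cells make the androgens of the testis. In them Star carries cholesterol into mitochondria, Cyp11a1 makes pregnenolone, and Hsd3b1 and Cyp17a1 carry the steroid on towards testosterone.

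The 12 libraries were compared by their Ddit3 level. All came from mLTC-1, an established mouse Leydig tumour cell line, as polyA RNA. In 6 of them, here control 1 to 6, the cells had received the vehicle DMSO for 24 h. In the other 6, MSNBA 1 to 6, they had received 100 µM of MSNBA, which the submitters name as blocking Glut5, a carrier of fructose. Members were chosen by their measured Ddit3 level alone. Within each treatment the 3 libraries with the highest Ddit3 CPM (counts scaled to a common library total) formed the high class and the 3 with the lowest formed the low class. All 12 libraries of the series entered, 6 high and 6 low, with treatment balanced. The class was taken from a measured value, so every difference below is an association with the Ddit3 level among these libraries and not the effect of a condition. Whether each replicate was its own culture is not stated in the labels, so p-values reflect the spread among these libraries alone, and that spread may be technical. In bulk RNA, a higher level in every cell cannot be told apart from a change in the share of cells that express a gene.

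Total counts ran from 59113 to 657251 per library. They were 0.787-fold as high in the high class (exact permutation of class within treatment, two-sided, p = 0.525, adjusted p = 0.99 over 3 measures), and the sign of this difference turned without MSNBA 1. At equal depth, 8754 genes were detected on average in both classes (exact permutation p = 0.99), and the 10 highest genes held 7.15% of counts in the high and 7.25% in the low class (exact permutation p = 0.695). Slc2a5, the gene of Glut5, had 1 count in the high and 1 in the low class. The Leydig cell genes Star, Hsd3b1, Cyp11a1, Cyp17a1, Insl3 and Nr5a1 were present in all 12 libraries. Marker sets of other testis cells were too low to test: those of macrophages summed to 8 counts in the high and 27 in the low class, of Sertoli cells to 77 and 113, of germ cells to 85 and 122, of endothelium to 11 and 17, and of fibroblasts and peritubular cells to 63 and 39. Summed marker CPM overlapped between the classes for all 5 sets, and the widest range was that of fibroblast and peritubular markers, 29.2 to 169 CPM in the high and 16.7 to 67.7 in the low class. The part of such cells in the results was not tested.

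Ddit3 itself is described without a test. Among controls, Ddit3 stood at 2259 CPM in control 2, 1229 in control 4 and 653 in control 6, the high class. It stood at 649 CPM in control 1, 508 in control 5 and 417 in control 3, the low class. Controls 2 and 4 lay well above the rest, whereas control 6 and control 1 at the class boundary were nearly tied, with a ratio of 1.01. In the deposited table the columns of controls 2 and 4 stand in a set with MSNBA 3 and 5, apart from a set of the other 4 controls, and what the sets are is not stated. Among controls, the 2 highest Ddit3 levels and this place in the table therefore cannot be told apart. MSNBA 1, 2, 4 and 6 share a set, which holds both high and low libraries. Under MSNBA, the high class held MSNBA 6 at 1847 CPM, MSNBA 4 at 1253 and MSNBA 3 at 1238. The low class held MSNBA 2 at 989 CPM, MSNBA 1 at 968 and MSNBA 5 at 743. The step at this boundary was 1.25-fold, and the lowest MSNBA library was above 4 of the 6 controls. The geometric mean of the high class was 2.36-fold that of the low class in controls and 1.59-fold under MSNBA. Between 30 and 636 Ddit3 counts stood behind each value, and the exact 95% Poisson interval of control 6, 528 to 798 CPM, spanned the value of control 1. These intervals cover counting error only.

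**Figure D1:**
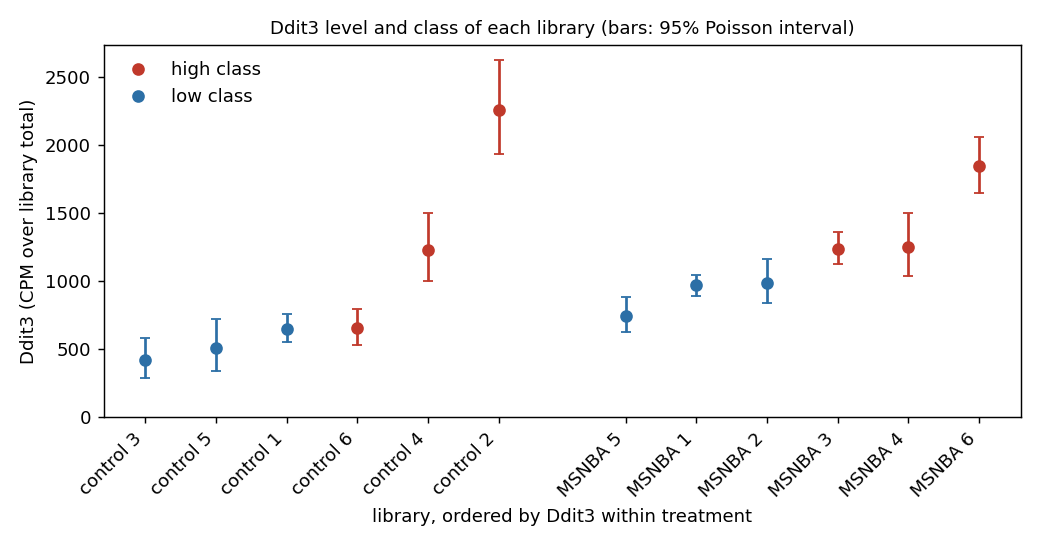
Ddit3 CPM over the library total (vertical axis, linear from 0) in the 12 libraries, ordered by level within treatment, with exact 95% Poisson intervals. Red marks the high and blue the low class. Controls 1 and 6 lie together at 649 and 653 CPM, while control 2 reaches 2259 CPM.

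With the 6 high set against the 6 low libraries and treatment as a covariate, no gene passed the threshold of an adjusted p under 0.05 among the 2613 tested genes, a background of 0% (edgeR quasi-likelihood test, Benjamini-Hochberg). At an unadjusted p under 0.05 there were 179 genes, 6.85% of those tested, of which 97 (3.71%) were higher and 82 (3.14%) lower in the high class. Chance alone gives about 131 at that p. limma-voom also called 0 genes, with 175 of 2613 at an unadjusted p under 0.05. DESeq2, run without the low-count filter, called 0 genes, with 222 of 19573 at that p. The 131 given for chance holds for 2613 genes and not for this larger set. The smallest adjusted p belonged to Hsd3b1, 0.197 at a log2 difference of 0.44. Simulated data of the same depth with 200 changed genes returned 29.4% of the genes at a true log2 difference of 0.5, 90.4% at 1 and 100% at 2. These shares hold for that number and mix of changed genes, which were not varied. The count depended on the libraries at the class boundary: it was 9 without control 6, 6 without MSNBA 3 and 4 without controls 1 and 6, but 0 without control 1, 0 without MSNBA 2 and 0 with control 1 in place of control 6.

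Genes did pass in 2 further fits, one on the Ddit3 level itself and one on a narrower split. With Ddit3 as a continuous covariate (log2 CPM), 23 genes passed: 16 rose with Ddit3 (0.612% of those tested) and 7 fell (0.268%). An unadjusted p under 0.05 was reached by 317 genes, 12.1%. With only the 2 highest and 2 lowest libraries of each treatment, which sets controls 2 and 4 and MSNBA 4 and 6 against controls 3 and 5 and MSNBA 1 and 5, 30 of 1594 tested genes passed (1.88%), 15 in each direction. The lists shared 14 genes, 60.9% of the 23 and 46.7% of the 30. Of the 23, only 21 were tested in the narrower fit. The continuous count rested heavily on single libraries, with 4 genes left without control 2, 9 without MSNBA 6, 12 without control 1, 15 each without control 4 and without MSNBA 2, and 43 without control 3. Both fits use the same libraries and are not independent. The 4 highest libraries had totals from 77030 to 172131 counts and the 4 lowest from 59113 to 657251, and the part of depth in the second fit was not tested. The genes they named were chosen after their values were seen.

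Star and Hsd3b1, of steroid production, and Nupr1, a stress gene, rose with Ddit3 in the continuous fit and in all 16 variations of it that were run. Star, the carrier of cholesterol into mitochondria, stood at 943 and 738 normalized CPM (CPM within the set of tested genes, after TMM scaling) in controls 2 and 4 and at 412 in control 6. In the low controls 1, 3 and 5 it stood at 387, 374 and 499. Under MSNBA it was 556, 787 and 844 in the high libraries MSNBA 3, 4 and 6, and 564, 431 and 421 in the low libraries MSNBA 1, 2 and 5. Controls 2 and 4 and MSNBA 4 and 6 were above all other libraries, while control 6 and MSNBA 3 lay among the low ones. Within the set of columns shared by MSNBA 1, 2, 4 and 6, Star was 564 and 431 in the low and 787 and 844 in the high libraries. Star rose by 0.64 on the log2 scale per doubling of Ddit3 (SE 0.11, edgeR adjusted p = 0.000349), and its difference between the classes was 0.62 (SE 0.16, edgeR adjusted p = 0.327), with 0.72 in controls and 0.55 under MSNBA.

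Hsd3b1, which oxidises pregnenolone to progesterone, had 5312, 4269 and 3613 normalized CPM in the high controls 2, 4 and 6. The low controls 1, 3 and 5 had 3750, 2666 and 3061. Under MSNBA the high libraries 3, 4 and 6 had 3092, 3567 and 4521, and the low libraries 1, 2 and 5 had 2765, 2714 and 2807. The classes did not overlap under MSNBA, and in controls only control 1 crossed, lying above control 6. With 3 libraries in each class such a gap can arise by chance. Its share over all tested genes under MSNBA alone was not counted. Hsd3b1 rose by 0.41 per doubling of Ddit3 (SE 0.067, edgeR adjusted p = 0.000349). Between the classes its log2 difference was 0.44 (SE 0.10), 0.47 in controls and 0.43 under MSNBA, and it was 1.36-fold higher in the high class by that fit, short of the threshold.

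The rest of the steroid pathway did not pass. Of 24 genes listed for steroid synthesis, 14 were tested, 7 had a log2 difference above 0 and 7 below, and the median was -0.014 beside -0.00014 over all tested genes. Star and Hsd3b1 were the 2 of the 14 that rose in the continuous fit, beside 0.612% of all tested genes, and 0 fell, beside 0.268%. Cyp11a1, the side-chain cleavage enzyme, ranged from 1804 to 3133 normalized CPM with a median of 2578 in the high class. In the low class it ranged from 2359 to 3042 with a median of 2806. The classes overlapped, and the log2 difference was -0.17 (SE 0.10, edgeR adjusted p = 0.718). Cyp17a1, which turns progestins into androgens, differed by 0.15 (SE 0.11, edgeR adjusted p = 0.83). Insl3, a peptide hormone of Leydig cells, differed by 0.04 and Nr5a1, the steroidogenic factor that controls many of these genes, by 0.03, and both turned sign under some alternatives. Lhcgr, the luteinizing hormone receptor, differed by -0.15 and was at 0.29 per doubling of Ddit3 in the continuous fit, neither past the threshold. Cholesterol synthesis had 21 of 23 genes tested, 17 of them above 0, with a median of 0.145 in the class comparison, 0.0075 in controls alone and 0.21 under MSNBA alone.

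**Figure D2:**
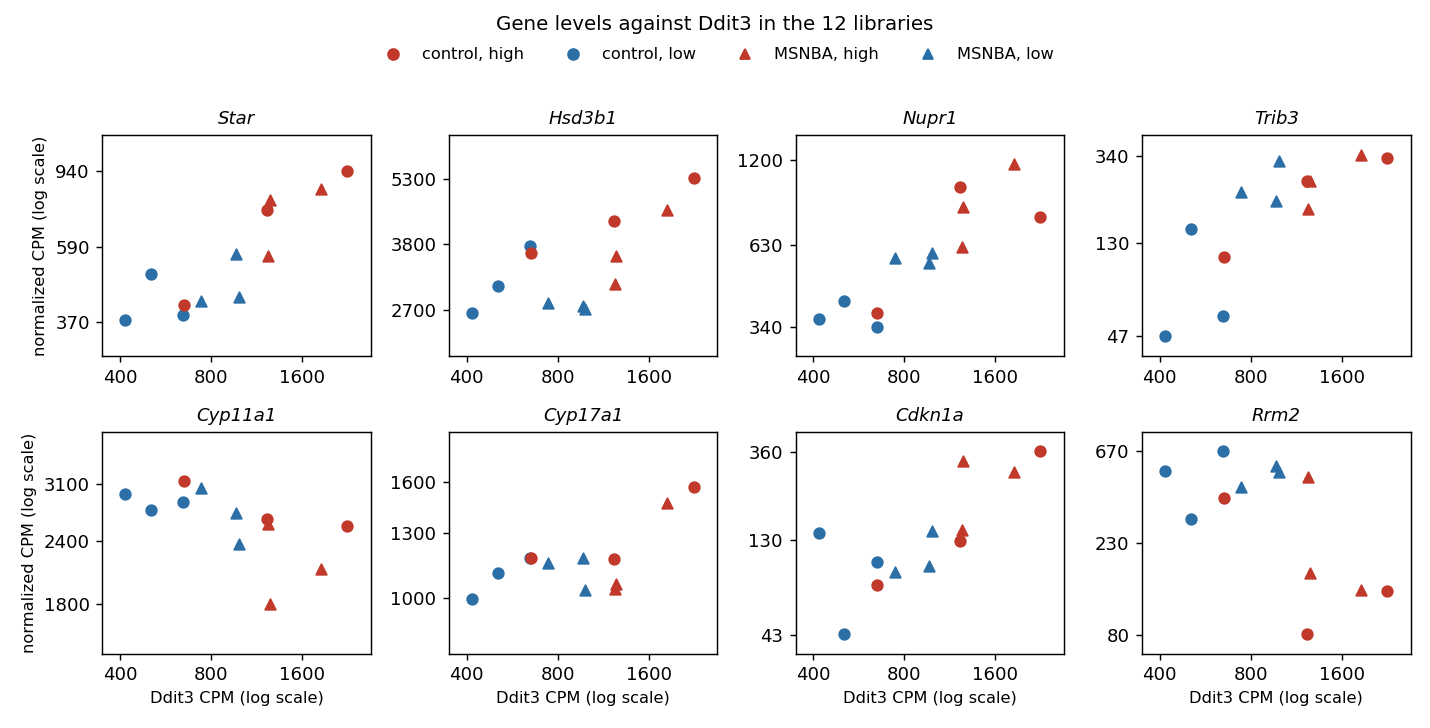
Normalized CPM of 8 genes (vertical axes, log scale) against Ddit3 CPM (horizontal axes, log scale) in the 12 libraries. Circles are controls, triangles MSNBA, red the high and blue the low class. Star, Hsd3b1 and Nupr1 climb with Ddit3, and Rrm2 stands at 163 normalized CPM or less in controls 2 and 4 and MSNBA 4 and 6.

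Of 27 listed transcription factors and regulators of the stress response, 10 were tested and 8 had a log2 difference above 0, with a median of 0.217. The medians were 0.475 in controls alone and 0.0953 under MSNBA alone. None passed between the classes. In the continuous fit 2 rose, Nupr1 and Trib3, beside 0.612% of all tested genes, and 0 fell. The 2 below 0 were Gadd45a, a stress-induced regulator of growth arrest, at -0.66 (edgeR unadjusted p = 0.0081, adjusted p = 0.569) and Eif2s1, the eIF2 subunit that the stress kinases phosphorylate, at -0.47. Ddit3 is itself a target of this pathway, and the list was written with earlier results of these data known.

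Nupr1, a small stress-induced chromatin protein, stood at 778, 979 and 378 normalized CPM in the high controls 2, 4 and 6. It stood at 339, 359 and 412 in the low controls 1, 3 and 5. Under MSNBA it was 621, 841 and 1166 in the high libraries 3, 4 and 6, and 549, 592 and 572 in the low libraries 1, 2 and 5. The MSNBA classes did not overlap, a trait whose share over all tested genes was not counted for MSNBA alone. Among the controls, control 6 alone crossed. Nupr1 rose by 0.71 per doubling of Ddit3 (SE 0.12, edgeR adjusted p = 0.000349), and its class difference was 0.72 (SE 0.19, edgeR adjusted p = 0.445).

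Trib3, a pseudokinase that CHOP and ATF4 induce, had 331, 257 and 112 normalized CPM in the high controls 2, 4 and 6 and 58.3, 46.8 and 152 in the low controls 1, 3 and 5. Under MSNBA the high libraries 3, 4 and 6 had 189, 258 and 344, and the low libraries 1, 2 and 5 had 208, 321 and 228. All 6 MSNBA libraries were above 4 of the 6 controls, and their classes overlapped. The log2 difference was 1.55 in controls and 0.075 under MSNBA, and the difference between these had an unadjusted p of 0.012 in the edgeR interaction test. That test called 0 of 2613 genes (0%), with 104 (3.98%) at an unadjusted p under 0.05. Trib3 rose by 0.80 per doubling of Ddit3 (SE 0.19, edgeR adjusted p = 0.0291), a call that was lost in 6 of 16 alternatives, among them those without control 1, 2 or 4 or MSNBA 6.

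Atf5, a transcription factor of the same pathway, differed by 0.50 (SE 0.17, edgeR adjusted p = 0.558) between the classes and rose by 0.59 (edgeR adjusted p = 0.037) in the fit of the 2 highest against the 2 lowest. Its slope in the continuous fit, 0.45 per doubling of Ddit3 (SE 0.12, edgeR adjusted p = 0.0595), was short of the threshold. Atf4 itself, whose control is largely translational, differed by 0.19 (SE 0.16, edgeR adjusted p = 0.838). Ppp1r15a, the phosphatase subunit that reverses eIF2 phosphorylation, differed by 0.16 (SE 0.25, edgeR adjusted p = 0.93). Other genes fixed for naming were too low to test: Chac1, which degrades glutathione, had 38 counts in the high and 32 in the low class, Atf3 13 and 11, Cebpb 57 and 96, Cebpg 63 and 96, Sesn2 12 and 17, and Psat1 40 and 47. These totals are not scaled for depth.

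Amino acid synthesis genes are the metabolic arm of the ATF4 program. Of 21 listed, 10 were tested, 9 had a log2 difference above 0, and the median was 0.186. In controls alone the median was 0.338 and under MSNBA alone 0.0709. Asns, which makes asparagine, had 215, 225 and 85.8 normalized CPM in the high controls 2, 4 and 6 and 106, 78.0 and 86.8 in the low controls 1, 3 and 5. Under MSNBA it had 196, 176 and 284 in the high libraries 3, 4 and 6, and 200, 194 and 186 in the low libraries 1, 2 and 5. Controls 2 and 4 alone reached the MSNBA level among the controls, and MSNBA 6 was the highest of all. The class difference was 0.33 (SE 0.21, edgeR adjusted p = 0.751) and the slope 0.59 per doubling of Ddit3 (SE 0.18, edgeR adjusted p = 0.0872), both short of the threshold. Psph, the last enzyme of serine synthesis, rose by 0.80 per doubling (SE 0.18, edgeR adjusted p = 0.0194), from 77.2 to 152 normalized CPM in controls other than 2 and 4 to 331 and 289 in those. That call was lost without control 1, 2 or 4 and with the replicate block. Phgdh, the first enzyme of serine synthesis, differed by 0.11 (SE 0.22, edgeR adjusted p = 0.96) and turned sign in some alternatives.

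Amino acid transporters had 7 of 15 tested, 4 of them above 0, with a median of 0.059, and 0 passed in either fit. Slc7a5, which imports large neutral amino acids, differed by -0.15 and Slc7a11, the cystine importer, by -0.03.

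Aminoacyl-tRNA synthetases charge tRNAs with amino acids. Of 21 listed, 13 were tested and 10 lay above 0, with a median of 0.176. Mars1, the methionyl-tRNA synthetase, rose by 0.78 per doubling of Ddit3 (SE 0.14, edgeR adjusted p = 0.000467), from 170 to 239 normalized CPM in controls 1, 3, 5 and 6 to 662 and 449 in controls 2 and 4. This value is uncertain. On GRCm38.p6, Ddit3 spans bases 127290793 to 127296291 of chromosome 10 on the plus strand and Mars1 bases 127296221 to 127311786 on the minus strand, so their 3′ ends overlap by 71 bases, and whether counting used the strand is not given. Reads of the shared stretch cannot be told apart. The call was lost without control 2.

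Genes of endoplasmic reticulum folding and the unfolded protein response, chaperones among them, showed no common direction. Of 31 listed, 19 were tested, 9 above 0 and 10 below, with a median of -0.041 that turned positive under DESeq2 (0.014) and limma-voom (0.038). The summed CPM of the list had a median of 8420 in the high and 7701 in the low class. In controls it was 8247 to 8503 in the high and 6953 to 7732 in the low class. Under MSNBA it overlapped, with 8161 to 8898 and 7670 to 8234. These sums were not tested. Hspa5, the chaperone BiP, ranged from 987 to 1779 normalized CPM in the high and from 889 to 1302 in the low class. Its log2 difference was 0.27 (SE 0.11, edgeR adjusted p = 0.622). Calr, a calcium-binding chaperone, differed by 0.26 (SE 0.097, edgeR adjusted p = 0.579).

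**Figure D3:**
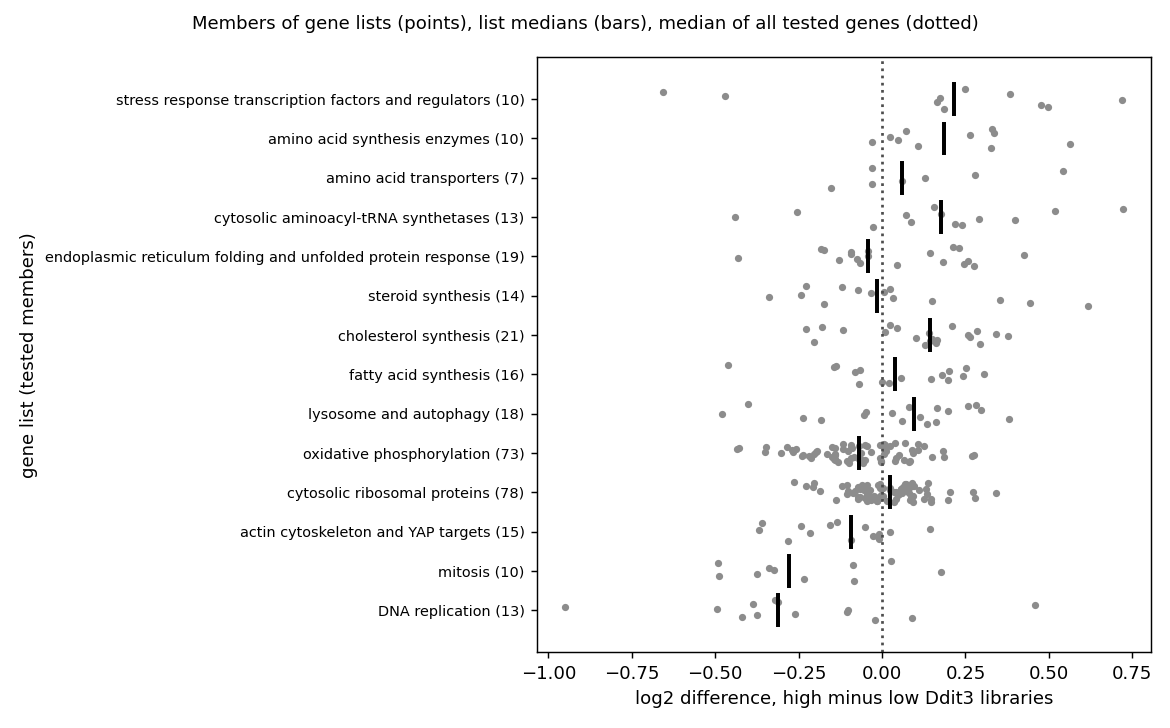
Log2 difference between high and low Ddit3 libraries (horizontal axis) of the tested members of 14 gene lists (points; number tested in brackets). Black bars are list medians and the dotted line the median of all tested genes; the stress regulators lie at 0.217 and the DNA replication genes at -0.312.

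Promoters were read for elements of the pathways that control Ddit3 and the chaperones, as a description of the listed genes and of those that passed in the continuous fit. Windows ran from 250 bases before to 50 bases after the start of each RefSeq gene on GRCm38.p6. The C/EBP-ATF element, to which CHOP or C/EBP proteins bind together with ATF4, was searched as TGATGNAA on either strand. It was found in 3.97% of all 32851 windows and in 2.36% of 2157 windows of tested genes. Among the stress regulators 7 of 25 windows held it (28%), among aminoacyl-tRNA synthetases 5 of 14, and among amino acid synthesis genes 4 of 18. Of the genes that rose with Ddit3, 2 of 14 held it, Nupr1 and Trib3, and of those that fell 2 of 7, Ctsl and Ecm1. The 300-base windows of Ddit3, Star, Hsd3b1 and Mars1 did not hold these letters. Bases farther than 250 before the start were not read, so these genes may hold the element there. The following stretches, in the direction of the gene, show the element in capitals, on the gene's strand in Asns and on the opposite strand in the others. They are shown because these genes are the standard readouts of the pathway, of which Nupr1 passed a test here.
Asns, chr6:7693210-7693252: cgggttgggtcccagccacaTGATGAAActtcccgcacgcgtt
Chac1, chr2:119351029-119351076: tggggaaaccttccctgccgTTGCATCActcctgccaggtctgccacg
Nupr1, chr7:126625553-126625600: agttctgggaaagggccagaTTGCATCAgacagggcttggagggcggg
Atf3, chr1:191183416-191183463: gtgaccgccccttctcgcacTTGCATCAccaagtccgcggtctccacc
The ER stress element, bound by ATF6 with NF-Y, was searched on either strand by its full consensus. It was found in 0.119% of all windows and in 10 of 26 windows of the endoplasmic reticulum list (38.5%), and in 0 of 14 windows of genes that rose and 0 of 7 of genes that fell in the continuous fit. Both chaperone genes named above carry it, Hspa5 on its own strand and Calr on the opposite one, in capitals.
Hspa5, chr2:34772005-34772063: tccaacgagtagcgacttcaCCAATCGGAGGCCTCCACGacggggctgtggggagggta
Calr, chr8:84847055-84847113: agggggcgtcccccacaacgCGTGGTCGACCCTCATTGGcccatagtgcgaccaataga
A match is a description of these letters and not of a bound site.

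Genes of proliferation were mostly below 0 in the class comparison. Of 26 DNA replication genes 13 were tested and 11 had a log2 difference below 0, with a median of -0.312. Of 24 mitosis genes 10 were tested and 8 lay below 0, with a median of -0.278. None passed between the classes. The direction of these medians was not stable: with the replicate number as a block they were 0.052 and 0.031, and in the 2 highest against the 2 lowest -0.508 and -0.656. Rrm2, the ribonucleotide reductase subunit that supplies deoxynucleotides in S phase, had 132 and 80.3 normalized CPM in controls 2 and 4 and 163 and 135 in MSNBA 4 and 6. In the other 8 libraries it had 304 to 667. Control 6 and MSNBA 3, of the high class, had 386 and 494. Rrm2 fell by 1.90 in the 2 highest against the 2 lowest (SE 0.25, edgeR adjusted p = 7.12e-06), while the class difference was -0.95 (SE 0.38, edgeR adjusted p = 0.669). That was the lowest class difference of the 13 tested DNA replication genes, and the highest was 0.46 for Tyms. Cdkn1a, the cell cycle inhibitor p21, rose by 1.06 per doubling of Ddit3 (SE 0.20, edgeR adjusted p = 0.00306). That call was lost without control 2 and with the replicate block. Cdkn1a stood at 364 in control 2, 326 in MSNBA 4 and 284 in MSNBA 6, and at 43.4 to 145 normalized CPM in the other 9 libraries, control 4 included.

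Of the tubulin genes, which build the microtubules, 3 were among the genes that fell in the fit of the 2 highest against the 2 lowest. They were picked after their values were seen. Tubb5 stood at 530 and 738 normalized CPM in controls 2 and 4 and at 461 and 486 in MSNBA 4 and 6, against 828 to 1278 in the rest. It fell by 0.99 in the 2 highest against the 2 lowest (SE 0.16, edgeR adjusted p = 0.000107). Tuba1b fell by 0.75 (SE 0.13, edgeR adjusted p = 0.000427) and Tuba1c by 0.61 (SE 0.16, edgeR adjusted p = 0.0439) in the same fit. Tuba1b and Tuba1c are near copies of each other, and how the counting treated reads that fit both was not tested. The actin and YAP target list had 15 of 27 tested, 13 below 0, with a median of -0.092.

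The other genes that fell in the 2 highest against the 2 lowest included kallikreins of the Klk1b cluster, serine proteases. Klk1b27 had 82.7 and 193 normalized CPM in controls 2 and 4 and 94.9 and 105 in MSNBA 4 and 6, and 297 to 504 in the other 8 libraries. It fell by 1.99 (SE 0.26, edgeR adjusted p = 7.12e-06). In the same fit Klk1b1 fell by 1.51, Klk1b24 fell by 1.497 and Klk1b21 fell by 1.46. These paralogs are alike in sequence and may count as 1 signal rather than 4, which was not tested. Ecm1, an extracellular matrix protein, fell by 1.19 (SE 0.23, edgeR adjusted p = 0.00111), and the lysosomal protease Ctsl fell by 0.47 (SE 0.11, edgeR adjusted p = 0.0143). Pdlim4, Ctnna1, Aldh1a2, Rpsa and Rplp1 made up the rest.

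Among the genes that rose there, Angptl4, an inhibitor of lipoprotein lipase, had 1241 and 1011 normalized CPM in controls 2 and 4 and 814 and 658 in MSNBA 4 and 6. The other 8 libraries had 251 to 546. It rose by 1.25 (SE 0.17, edgeR adjusted p = 8.7e-06). Aqp2, a water channel, rose by 1.76 (SE 0.25, edgeR adjusted p = 1.57e-05), and Acot2, a mitochondrial thioesterase, by 0.73 (SE 0.17, edgeR adjusted p = 0.0115). Acot2 also rose by 0.61 per doubling of Ddit3 (SE 0.12, edgeR adjusted p = 0.00334). It passed in 14 of 16 variations of that fit, and was lost without control 2 and with the replicate block. The remaining genes that rose in the continuous fit were Clpb, a mitochondrial disaggregase, by 0.66, Defb19, a defensin, by 0.55, the lysosomal protease Ctsd by 0.42, the succinate dehydrogenase subunit Sdhb by 0.34, Bloc1s1 by 0.48, Rnf166 by 0.80, Rras by 0.54 and Gmppa by 0.63 per doubling. All 8 calls were lost without control 2, and all but that of Clpb with the replicate block. Of 16 variations, Clpb passed in 15, Defb19 and Sdhb in 13, Ctsd in 11, Bloc1s1 in 9, Rnf166 and Rras in 8, and Gmppa in 7. The 7 genes that fell in the continuous fit were Klk1b27, Klk1b1, Ecm1, Ctsl, Tuba1b, Snd1 and Snrpg. Snd1, a nuclease of RNA metabolism, fell by 0.49 per doubling (SE 0.12, edgeR adjusted p = 0.0322), and Snrpg, a core protein of spliceosomal particles, fell by 0.52 (SE 0.13, edgeR adjusted p = 0.0382). Ecm1 passed in 11 of the 16 variations, Ctsl in 9, Klk1b1 and Klk1b27 in 7, Snd1 and Tuba1b in 6 and Snrpg in 5.

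**Figure D4:**
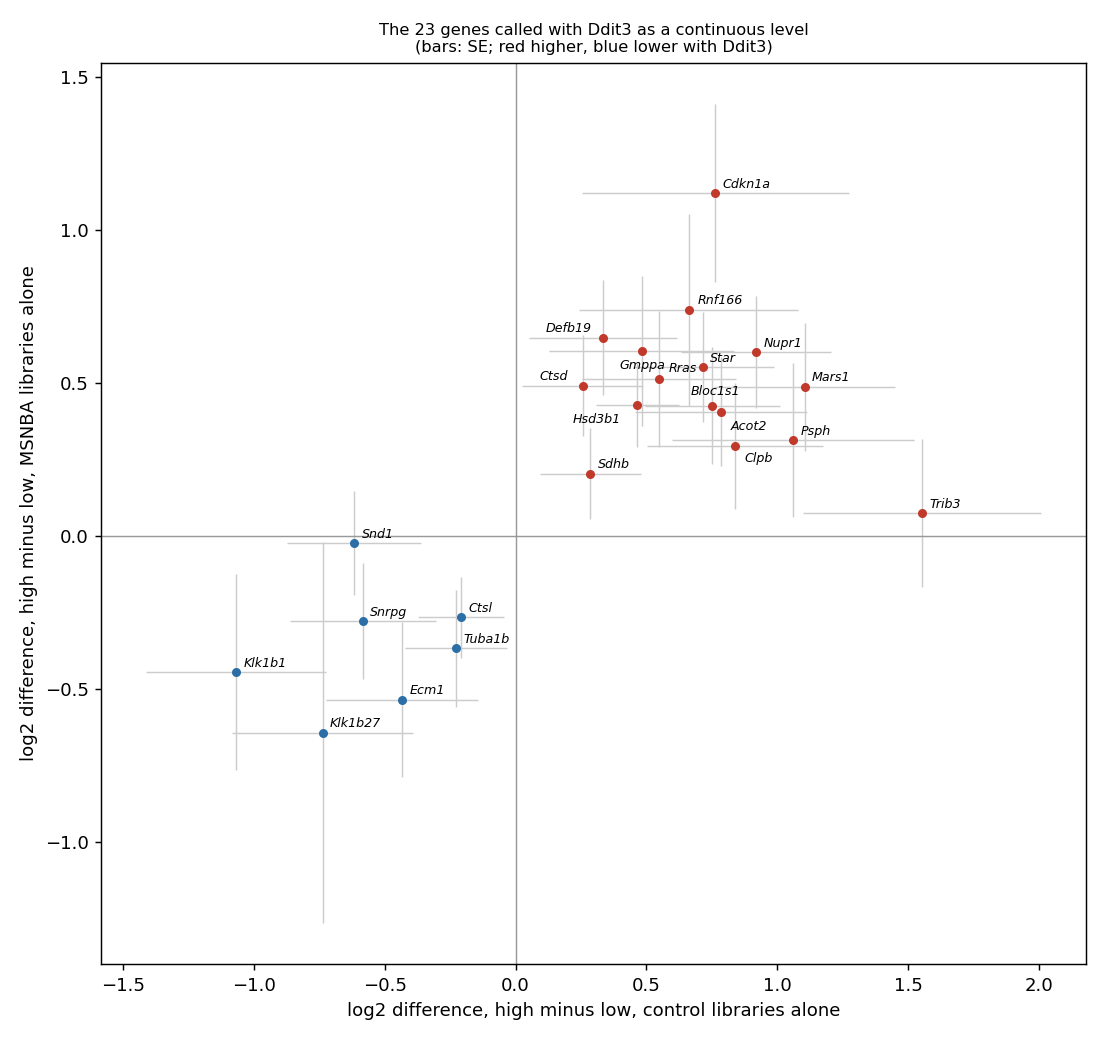
Log2 difference between high and low libraries in controls alone (horizontal axis) and under MSNBA alone (vertical axis), with SE, for the 23 genes called in the continuous fit (red rose, blue fell with Ddit3). All 23 points have the same sign in both treatments, which the choice of genes by a fit over both treatments favours, beside 55.8% of all tested genes. Trib3 lies at 1.55 and 0.075.

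Medians of the lists that follow ran from -0.070 to 0.097, beside -0.00014 over all tested genes. Oxidative phosphorylation had 73 tested genes, 24 of them above 0, with a median of -0.070. That is 32.9% above 0, beside 49.9% of all tested genes. Cytosolic ribosomal proteins had 78 tested, 43 of them above 0, with a median of 0.024. Lysosome and autophagy genes had 18 tested, 12 above 0, with a median of 0.097, of which Ctsd rose and Ctsl fell in the continuous fit. The antioxidant genes controlled by NRF2 had 24 tested, 11 above 0, with a median of -0.028. Genes of glucose transport and glycolysis had 20 tested, 6 above 0, with a median of -0.057. None of these genes passed between the classes.

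The class difference had the same sign in controls and under MSNBA for 55.8% of the 2613 tested genes, and for 68.1% of the 138 genes at an unadjusted p under 0.05 in controls and 68.9% of the 167 under MSNBA. Of 11 genes at that p in both, 9 shared the sign: Acot2, Bloc1s1, Eef2kmt, Hsd3b1, Mars1, Naa38, Nupr1 and Star were higher and Ddx1 lower in the high class of both, while Mapre1 and Sh3bgrl3 were opposite. Their signs were chosen after the values were seen and are given without a test. Classes did not overlap in either treatment for 8 genes that were higher (0.306% of those tested) and 10 that were lower (0.383%). With 400 arrangements of class within treatment, chance alone gives a share of about 0.005 of genes over both directions together. These counts were not tested against that share. Bloc1s1, a subunit of a lysosome-positioning complex, was the one among the named genes in which all 6 high libraries, 434 to 662 normalized CPM, lay above all 6 low ones, 282 to 423. Foxo1, a transcription factor restrained by insulin signalling, was the reverse, with 48.2 to 108.51 in the high and 108.534 to 165.5 in the low class, so that the classes nearly touched. The class difference of Bloc1s1, 0.56 (SE 0.15), still had an edgeR adjusted p of 0.327. That of Foxo1 was -0.70 (SE 0.23, edgeR adjusted p = 0.558).

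The 8 tested genes most alike to Ddit3, by Pearson's r of log2 CPM centred within treatment over the 12 libraries, were Hsd3b1 (r = 0.92), Wbp2 (0.91), Mars1 (0.91), Star (0.89), Asns (0.89), Calr (0.88), Prrg2 (0.88) and Tceal9 (0.88). Spearman's rho lay between 0.79 for Asns and Prrg2 and 0.89 for Star. Without control 2 and MSNBA 6, the libraries farthest from the median of Ddit3, r was between 0.72 for Tceal9 and 0.88 for Calr. All values share the same libraries and depths, and no p is given.

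With the Ddit3 class in the model, MSNBA against control called 2 of 2613 genes, both lower under MSNBA (0.0765%). They were Nrg1, a growth factor of the epidermal growth factor family, and Actn4, an actin crosslinker. Nrg1 fell by 1.01 on the log2 scale (edgeR adjusted p = 0.0114), with 232 to 482 normalized CPM in controls and 119 to 271 under MSNBA, and Actn4 fell by 0.79 (edgeR adjusted p = 0.0292). Without the class in the model there were also 2. Between the Ddit3 classes Nrg1 differed by 0.44 (SE 0.20, edgeR adjusted p = 0.663) and Actn4 by -0.01 (SE 0.17, edgeR adjusted p = 0.996). limma-voom and DESeq2 called neither for the treatment, and leaving out 1 library gave 0 to 13 genes.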

How the data were processed

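PolyA RNA of 12 mLTC-1 libraries (6 DMSO, 6 MSNBA) was measured. The authors deposited raw counts per gene symbol in 1 table of 26214 symbols, without normalization. Per the submitters' processing notes, BWA 0.7.4.4 and mm10 were used. The deposited table's name points to RefSeq genes, unique alignments and molecular identifiers. The sources used here do not give the counting tool, the annotation's release or the use of strand. Analyses used R 4.3.3, edgeR 4.0.16, limma 3.58.1 and DESeq2 1.42.0. Genes were kept by filterByExpr with treatment as the group, 2613 beside Ddit3, which held 79.1% of counts with Ddit3. Counts were scaled by TMM factors and tested with the edgeR robust quasi-likelihood F test, two-sided, with treatment and Ddit3 class. P-values were adjusted by Benjamini-Hochberg at 0.05. The common biological coefficient of variation was 0.14. Fits were tested on simulated data in 10 runs of 200 changed genes (5.18% of calls false). Depth limits precision, with as few as 59113 counts in 1 library.

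Members and gene lists were chosen with earlier results of these data known. Named genes were the markers, 18 further genes fixed by name, up to 12 genes in each direction past the threshold (none qualified), list members past it, and the 8 genes most alike to Ddit3. Genes of the continuous fit and of the 2 highest against the 2 lowest were added after their values were seen. Alternatives covered the test, scaling, filter, depth, class rule, treatment term, replicate block and each left-out library.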

Additional observations from a re-analysis of the deposited data

Results flagged for a closer look

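In the high class, MSNBA 3 had a total of 342488 counts, far from the next library at 172131. In the low class, MSNBA 1 had 657251 counts, far from the next at 234225. Hsd3b1 in control 1 stood at 3750 normalized CPM, apart from the other low libraries, of which the next had 3061. These 3 values were singled out because their gap to the nearest library was wide for the range of the group. Of 82 groups examined, chance alone gives about 4.1 such values.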

How the results depend on the processing

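Differences of 0.5 on the log2 scale were found in 29.4% of simulated cases at the depth and number of libraries of these data. The simulation did not vary depth or the number of changed genes, so their part in this share was not tested. The class comparison called 0 genes, but 6 without the low-count filter, 23 with Ddit3 as a continuous covariate, 30 with the 2 highest and 2 lowest, and, chosen after seeing the data, 4 without controls 1 and 6. Leaving out 1 library gave 0 to 9. Every other alternative gave 0. The interaction called 0 genes in every left-out library and under limma-voom. MSNBA against control called 2 genes, 0 under limma-voom and DESeq2, and 0 to 13 with 1 library left out. The continuous fit called 23, and 4 to 43 with 1 library left out. Hsd3b1, Nupr1 and Star passed in all 16 alternatives of it, which were added after seeing the data. The depth difference, -0.346, ran from -0.644 to 0.051 (without MSNBA 1).

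Same-number residual correlations between control and MSNBA libraries were 0.37, -0.093, 0.067, 0.14, 0.053 and -0.13, of which 2 of 6 passed 0.1. Libraries of different numbers were not compared, so whether replicate numbers pair the libraries was not tested. With the replicate block the class comparison called 0 genes, MSNBA against control 17 and the continuous fit 6. The block also turned the median of cholesterol genes to -0.034, beside those of DNA replication and mitosis genes, and moved Lhcgr to 0.145 and Nrg1 to -0.115. The cause was not tested.

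Of 1108 gene values under alternatives, 1025 kept direction and side of the threshold, 53 newly passed and 30 turned sign, all of the latter in genes that passed no class test. Phgdh turned to -0.00794 under limma-voom and -0.046 with depth as a covariate, Insl3 to -0.20 in controls alone, and Actn4 to 0.019 under limma-voom and 0.017 without the treatment term. Nr5a1 turned to -0.064 with the 2 highest and 2 lowest, -0.23 under MSNBA alone, -0.038 with control 1 in place of 6 and -0.014 without both. Lhcgr turned to 0.29 in the continuous fit, 0.11 in controls alone and 0.089 with control 1 in place of 6, and Wbp2 to -0.0021 under MSNBA alone. With 1 library left out, Phgdh ran from -0.054 to 0.29, Insl3 from -0.033 to 0.10, Nr5a1 from -0.028 to 0.10 and Actn4 from -0.12 to 0.058. Of 696 list medians under alternatives, 39 moved by more than the spread.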
